A study of Homo sapiens with 12 samples.

Results

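The comparison described here sets 3 libraries of a kidney cancer line in which the JUN family of transcription factors was silenced against 3 libraries of the same line in which HIF2A was silenced. The 6 libraries were taken by their labelled genotype from a set of 12, which also held 3 of the parental line and 3 of a line with YAP and TAZ silenced. The line is 786-O, an established human line of clear cell renal cell carcinoma (ccRCC). One derived line carried shRNAs against HIF2A, the product of EPAS1 (shHIF2A), and the other carried shRNAs against JUN, JUNB and JUND (shJUNs). All 12 libraries, the parental ones included, came from cells given doxycycline for 72 hours, which switches the shRNAs on. The derived lines had been selected with puromycin, blasticidin or hygromycin according to how many genes were silenced, so the drugs may differ between the lines compared. Polyadenylated RNA was measured by BRB-seq, which barcodes and sequences the 3′ ends of mRNAs. The labels call the replicates technical, so p-values here measure only the spread between libraries of 1 line of each kind, and an effect of a knockdown cannot be told apart from other differences between the lines. A line with a control shRNA was not analysed here.

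HIF2A is the oxygen-regulated subunit of a transcription factor that binds hypoxia response elements in DNA. In most ccRCC, 786-O included, loss of the VHL protein leaves HIF2A stable in normal oxygen, and its targets in glucose uptake, growth signalling and the cell cycle stay on. JUN, JUNB and JUND are leucine-zipper proteins that pair with each other or with FOS-type partners to form AP-1, which binds the palindrome-like site TGANTCA (N is any base) and drives genes of proliferation, adhesion, matrix turnover and inflammation.

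Levels are given as CPM, counts scaled to a common library total. Differences come from edgeR's quasi-likelihood test of shJUNs against shHIF2A, with a mean per group and all 12 libraries in the fit, and a gene was called where its Benjamini-Hochberg adjusted p, over 12301 genes, lay under 0.05. "Higher" and "lower" mean in shJUNs relative to shHIF2A throughout, and replicate values are listed in the order 1 to 3. Total counts were 3684052 to 4469956 in shJUNs and 2867807 to 3526537 in shHIF2A, so that every shJUNs library was deeper than every shHIF2A library. Replicates of 1 line differed by more than counting error (chi-squared per degree of freedom 4.91 to 10.11). Both lines held the defining tumour markers: PAX8, the renal lineage factor, was at 99.2 against 99.7 CPM, and VIM, KRT8, KRT18, CD70 and NNMT were each above 300 CPM in both. CA9, often used as a ccRCC marker, was low in both (1.29 against 2.11 CPM), and the proximal tubule receptors CUBN (2 against 5 counts) and LRP2 (0 in both) were at or near 0, whereas the tubule genes AQP1 (117 against 109 counts), MME (99 against 76), ANPEP (437 against 161) and SLC34A1 (18 against 4) were detected. PTPRC, CD3E, PECAM1, CDH5, CLDN5 and SOX10, markers of blood, endothelial and neural crest cells, had 0 counts in all 6 libraries. Of the other such markers, CD14 had 3 against 3 counts, HBB 7 against 17, VWF 0 against 1, GFAP 1 against 2 and RBFOX3, a neuronal splicing factor, 100 against 2. In bulk RNA, fewer cells that express a gene and less of its RNA per cell cannot be told apart.

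Of the shRNA targets, JUND and EPAS1 differed between the lines in the direction of their labels, and JUN and JUNB did not pass the test. JUND (ENSG00000130522, chromosome 19, 18279694 to 18281622, hg38) was 39.5, 34.2 and 42 CPM in shJUNs and 269, 206 and 186 CPM in shHIF2A. Both lines lay below the parental mean of 355 CPM. No shJUNs library came near the lowest shHIF2A library. The difference was 5.7-fold (log2 -2.51, SE 0.17, adjusted p = 1.61e-09), and the call held under all 21 alternatives run. EPAS1 (ENSG00000116016, chromosome 2, 46293667 to 46386697) was 36.6, 38.5 and 36.2 CPM in shJUNs and 11.9, 17.5 and 18.6 CPM in shHIF2A, against a parental mean of 203 CPM. It was thus low in both lines, and lowest in the line built to silence it, with no overlap of the libraries. It was 2.33-fold higher in shJUNs (log2 1.22, SE 0.33, adjusted p = 0.029), but the call ended with limma-voom (0.134), with thinned counts (0.0635), without shHIF2A replicates 1 (0.121), 2 (0.0737) or 3 (0.0585) and without shJUNs replicates 1 (0.0715), 2 (0.079) or 3 (0.0675).

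JUN (ENSG00000177606, chromosome 1, 58776845 to 58784048) was 78.1, 85.7 and 93 CPM in shJUNs and 80.6, 80.5 and 79.5 CPM in shHIF2A. The libraries of the lines overlapped (log2 0.09, SE 0.18, adjusted p = 0.824), and both lines lay below the parental mean of 153 CPM. JUNB (ENSG00000171223, chromosome 19, 12791486 to 12793315), which overlaps HOOK2 on the other strand, was 103, 111 and 125 CPM in shJUNs and 135, 152 and 180.4 CPM in shHIF2A. Every shJUNs library was below every shHIF2A library, yet the difference did not pass (log2 -0.46, SE 0.24, adjusted p = 0.299). A fit of the 6 libraries alone did call it (adjusted p = 0.0323). Both lines lay below the parental mean of 192 CPM.

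**Figure D1:**
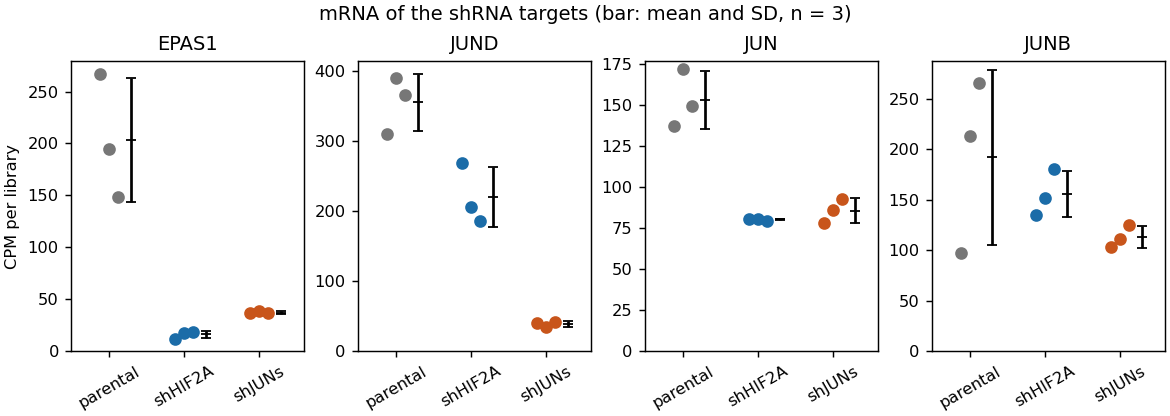
CPM of EPAS1, JUND, JUN and JUNB in each parental, shHIF2A and shJUNs library (points, linear axes from 0), with the mean and SD of 3 libraries as a bar beside them. JUND is near 40 CPM in the shJUNs libraries and above 180 CPM in all shHIF2A libraries, whereas the JUN points of the lines share 1 range.

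Across the transcriptome, edgeR called 926 genes (7.53% of those tested), 536 higher (4.36%) and 390 lower (3.17%), and 311 (2.53%) and 154 (1.25%) of them differed at least 2-fold. Libraries of the lines did not overlap for 1989 genes higher (16.2%) and 1851 lower (15%). With every library thinned to the depth of the shallowest, 480 and 345 genes were called. Leaving out any 1 of the 6 libraries lowered the counts to between 306 and 392 higher and between 165 and 271 lower. Beside most gene groups below stands the range over the 12 libraries left out in turn. Counts of called or non-overlapping members of a group are to be read beside these shares of all genes. The median log2 difference over all genes was -0.01, and the median absolute log2 difference was 0.35.

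**Figure D2:**
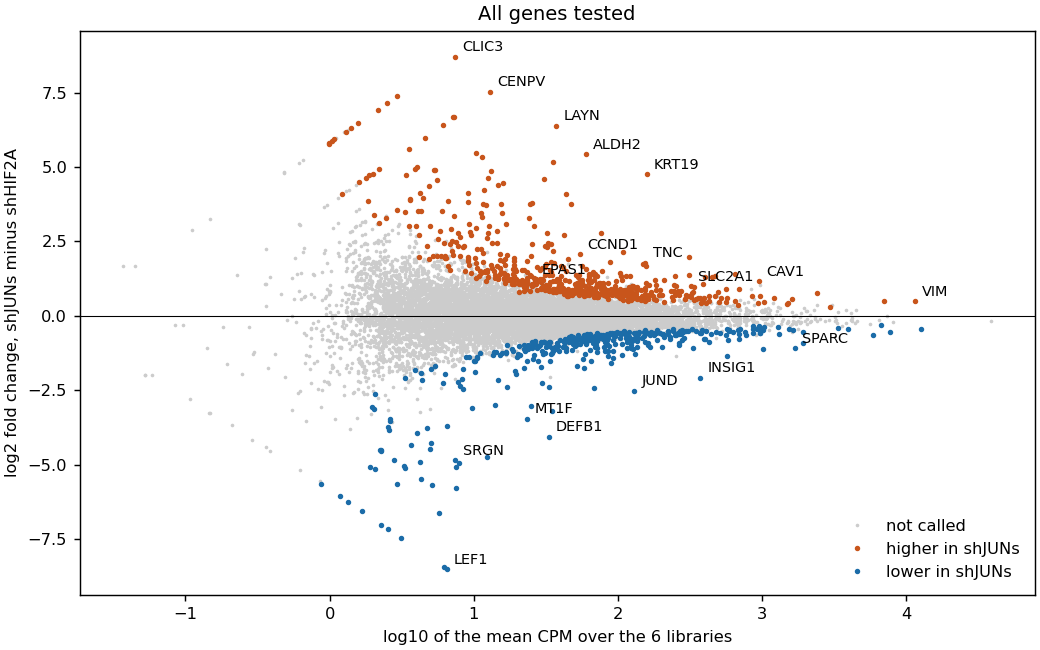
Log2 difference (shJUNs minus shHIF2A) of each gene tested against the log10 of its mean CPM over the 6 libraries, with called genes in colour. Among abundant genes KRT19 stands out above and JUND and INSIG1 below, and most called genes above 100 CPM lie within 2 log2 units of 0. Points of genes with 0 counts in 1 line (CLIC3, LEF1) are fitted values that depend on a prior count.

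Among known HIF2A targets every called member was higher in shJUNs. Of 29 members of the list tested, 6 were higher and 0 lower, beside 4.36% and 3.17% of all genes. With 1 library left out 3 to 11 were higher, fewest without shJUNs replicate 3 and most without shYAPTAZ replicate 1. A positive difference was seen in 23, and the median was 0.61 against -0.01 over all genes. SLC2A1 (ENSG00000117394, chromosome 1, 42925353 to 42958893), the glucose transporter GLUT1, was 435, 438 and 411 CPM in shJUNs and 209, 219 and 216 CPM in shHIF2A. Its libraries were far apart, with a 1.99-fold difference (adjusted p = 3.42e-05), and both lines lay below the parental mean of 1573 CPM. CCND1 (ENSG00000110092, chromosome 11, 69641156 to 69654474), cyclin D1, was 84.3, 82.8 and 95 CPM in shJUNs and 15.9, 13.1 and 34.3 CPM in shHIF2A, 4.18-fold higher (adjusted p = 0.00034), with shHIF2A replicate 3 highest of its group and still well below shJUNs. The parental mean was 723 CPM. CCND1 overlaps LTO1 on the other strand.

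SLC7A5 (ENSG00000103257, chromosome 16, 87830023 to 87869507), the large neutral amino acid transporter LAT1, was 577, 568 and 594 CPM in shJUNs and 296, 337 and 475 CPM in shHIF2A (1.57-fold, adjusted p = 0.00483). The other called members were STC2, a secreted glycoprotein (98.4 against 35.4 CPM), ENO2, a glycolytic enolase (16.8 against 7.49 CPM), and SCARB1, the HDL receptor (129 against 85.2 CPM). Several well-known targets had a similar size of difference without passing the test: VEGFA, the angiogenic growth factor, was 89.1 against 50.7 CPM, ADM, adrenomedullin, 47 against 17.6 CPM, EGLN3, a HIF prolyl hydroxylase, 32.6 against 12.7 CPM, and TGFA, a ligand of the EGF receptor, 81.7 against 40.5 CPM (adjusted p = 0.108). TGFA was called in the 6 libraries alone (0.00164), with no filter on low counts (0.00369) and without parental replicate 1 (0.0448) or shYAPTAZ replicate 2 (0.0249). Of the 29 members, libraries did not overlap for 16 higher and 2 lower, beside 16.2% and 15% of all genes. Of the 6 called, ENO2 and SCARB1 lie on chromosome 12 and SLC7A5 on chromosome 16, both shifted as a whole (below). The members furthest below 0 were P4HA1, a collagen prolyl hydroxylase (log2 -0.29), and CITED2, a HIF-induced transcriptional regulator (log2 -0.27). HILPDA, a lipid droplet protein, was 21.4 against 21.9 CPM and ANGPTL4 16 against 14.9 CPM.

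The mean centred level of the 29 targets, as log2(CPM + 1) relative to the mean of all 12 libraries, was 0.0, -0.16 and -0.14 in shJUNs, -0.8, -0.79 and -0.64 in shHIF2A and 1.38, 0.98 and 0.8 in the parental libraries. On this mean all shJUNs libraries thus lay between the parental and the shHIF2A ones. That order did not hold for every member. STC2 was 98.4 CPM in shJUNs and 35.4 CPM in shHIF2A, with a parental mean of 39.9 CPM. Promoters of 3 called members are shown because their 300-base windows (250 bases before to 50 after the start, RefSeq, GRCh38.p14) hold the core of the hypoxia response element, ACGTG or GCGTG on either strand, in capitals. These 3 were chosen after their values were seen. SLC2A1 is at chr1:42958819-42959118, reverse strand, SLC7A5 at chr16:87869458-87869757, reverse strand and ENO2 at chr12:6914330-6914629, forward strand.
SLC2A1: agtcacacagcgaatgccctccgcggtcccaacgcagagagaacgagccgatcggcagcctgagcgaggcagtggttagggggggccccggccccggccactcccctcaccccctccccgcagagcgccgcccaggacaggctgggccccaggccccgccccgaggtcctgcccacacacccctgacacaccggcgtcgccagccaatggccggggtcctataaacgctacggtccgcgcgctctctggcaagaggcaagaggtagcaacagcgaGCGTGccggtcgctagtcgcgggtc
SLC7A5: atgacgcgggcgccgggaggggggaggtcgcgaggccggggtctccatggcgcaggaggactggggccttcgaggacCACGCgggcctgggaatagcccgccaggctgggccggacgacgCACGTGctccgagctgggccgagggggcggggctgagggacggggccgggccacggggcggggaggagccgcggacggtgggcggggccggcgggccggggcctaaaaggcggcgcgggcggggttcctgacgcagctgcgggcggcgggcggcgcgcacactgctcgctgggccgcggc
ENO2: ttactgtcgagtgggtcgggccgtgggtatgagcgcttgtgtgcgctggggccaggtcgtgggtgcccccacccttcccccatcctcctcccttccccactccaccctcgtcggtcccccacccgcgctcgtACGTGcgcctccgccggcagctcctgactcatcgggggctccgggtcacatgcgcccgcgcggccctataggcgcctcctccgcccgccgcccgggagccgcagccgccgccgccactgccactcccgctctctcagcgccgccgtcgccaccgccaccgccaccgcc
The core occurred once in the windows of SLC2A1 and ENO2 and 3 times in that of SLC7A5, where CACGTG counts on both strands. It was present in 18 of 20 list members with a promoter in the table (90%), and in 64.2% of the promoters of all genes tested, so it is common in any set. AP-1 sites (TGANTCA) were not marked in these windows, and that of ENO2 also holds tgactca in lower case. A match is a description of the letters and not a measured binding site.

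Called glycolytic genes were all higher. Of 24 glycolytic and hypoxia metabolism genes 3 (12.5%) were higher and 0 lower (1 to 5 with 1 library left out, fewest without shHIF2A replicates 1 or 2 or shJUNs replicates 2 or 3, most without shYAPTAZ replicate 1), and the median was 0.16. SLC16A3 (ENSG00000141526, chromosome 17, 82217934 to 82261129), the lactate exporter MCT4, was 403, 406 and 417 CPM in shJUNs and 231, 261 and 235 CPM in shHIF2A (1.69-fold, adjusted p = 0.000497). It overlaps CSNK1D on the other strand, which was at 106 against 87.4 CPM with overlapping libraries. LDHA, which turns pyruvate into lactate, was 1128, 1062 and 1057 CPM in shJUNs and 729, 819 and 857 CPM in shHIF2A, 1.35-fold higher (adjusted p = 0.0173), a call lost without shHIF2A replicates 1 (0.103) or 2 (0.0599) and without shJUNs replicates 1 (0.0824), 2 (0.0545) or 3 (0.0563). TPI1, triose phosphate isomerase, was 645 against 471 CPM with SPSB2 on the other strand and a call lost without shHIF2A replicates 1 (0.079) or 2 (0.0957) and without shJUNs replicates 2 (0.0801) or 3 (0.0775), while PGK1 (626 against 696 CPM) and HK1 (69.8 against 68.4 CPM) did not pass.

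Of 14 AP-1 and related leucine-zipper genes edgeR called 1 lower, JUND, and 0 higher, a called share of 7.14% beside 7.53% of all genes. The fit of 6 libraries alone also called JUNB (above). FOSL1 and FOSL2, FOS-type partners of JUN proteins, were 43.9 against 39.5 CPM and 113 against 129 CPM, ATF3 was 9.14 against 13.4 CPM, and FOS was near the limit of detection in both lines (1.77 against 1.79 CPM). JDP2, a repressor that dimerises with JUN proteins, was 10.2, 24.6 and 13.9 CPM in shJUNs and 5.51, 6.55 and 9.81 CPM in shHIF2A, without overlap and without a call (adjusted p = 0.11).

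AP-1 targets called by edgeR in the 12 libraries were all higher in shJUNs. Of 26 tested, 3 were higher and 0 lower (2 to 4 higher with 1 library left out), and the median was 0.31. The called share was 11.5%, beside 7.53% of all genes. Libraries did not overlap for 10 members higher and 3 lower, beside 16.2% and 15% of all genes. The other tools, filters and scalings called 3 to 7 higher and 0 to 1 lower. VIM (ENSG00000026025, chromosome 10, 17228241 to 17237593), vimentin, the intermediate filament of mesenchymal cells, was 12985, 13468 and 13680.0 CPM in shJUNs and 9063, 9532 and 9766 CPM in shHIF2A (1.42-fold, adjusted p = 0.000264), with VIM-AS1 on the other strand. CD44 (ENSG00000026508, chromosome 11, 35138882 to 35232402), the hyaluronan receptor, was 227, 243 and 288 CPM in shJUNs and 93.6, 104 and 128 CPM in shHIF2A, 2.33-fold higher (adjusted p = 0.00411). No shJUNs library overlapped a shHIF2A library for either gene. Parental means were 14956 and 229 CPM, for both genes nearer to shJUNs than to shHIF2A. PHLDA1 was 99.3 against 53.3 CPM, with a parental mean of 49.3 CPM, near shHIF2A. Its call was lost without shHIF2A replicates 1 (0.102), 2 (0.114) or 3 (0.0618) and without shJUNs replicates 1 (0.0665), 2 (0.0889) or 3 (0.112).

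Classical AP-1 outputs lay on both sides without passing. CXCL8, the neutrophil chemokine, was 8.43, 13.9 and 16.8 CPM in shJUNs and 24.6, 38.7 and 101 CPM in shHIF2A (log2 -2.06, adjusted p = 0.323), and HBEGF, an EGF receptor ligand, was 18.6 against 29.1 CPM. EREG, another such ligand, was 96.2 against 36.1 CPM, MMP14 71.5 against 47.4 CPM and PLAU, urokinase, 47.2 against 31.4 CPM. Of 14 feedback genes of the MAP kinase pathway, 0 were called in either direction by edgeR. The smallest p was that of DUSP10, a phosphatase of JNK and p38 (45.7, 38.2 and 49.2 CPM in shJUNs and 68.1, 63.6 and 69.7 CPM in shHIF2A, adjusted p = 0.133), which was called in the fit of 6 libraries alone (0.0294).

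The largest differences in favour of shJUNs were of genes nearly silent in shHIF2A. CLIC3 (ENSG00000169583, chromosome 9, 136994608 to 136996568), an intracellular chloride channel family protein, was 16.2, 12 and 16.5 CPM in shJUNs and had 0 counts in shHIF2A, at least 47.8-fold higher if the 3 shHIF2A libraries together are given 3 counts (adjusted p = 2.11e-05). CENPV (ENSG00000166582, chromosome 17, 16342534 to 16353656), a centromere protein, had 332 against 1 counts, a depth-scaled ratio of 248 (95% interval 44.2 to 9820.0). Intervals of such ratios are exact binomial ones and cover counting error only. GALNT5, an enzyme that starts mucin-type O-glycans, had 182 against 1 counts, and MDK, the growth factor midkine, 186 against 1 counts. TFCP2, a transcription factor, had 157 against 1 counts. LAYN (ENSG00000204381, chromosome 11, 111540280 to 111561745), the hyaluronan receptor layilin, was 77.4, 66.5 and 76.7 CPM in shJUNs and 1.16, 0.312 and 1.05 CPM in shHIF2A (83.9-fold, adjusted p = 1.61e-09).

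HNMT, which inactivates histamine, was 21.3, 19.2 and 20.8 CPM in shJUNs and 0.290, 0 and 1.05 CPM in shHIF2A, and ALDH2 (ENSG00000111275, chromosome 12, 111766887 to 111817532), the mitochondrial aldehyde dehydrogenase, was 122, 107 and 123 CPM in shJUNs and 6.96, 0 and 0.701 CPM in shHIF2A (43.1-fold, adjusted p = 9.07e-06). For both genes every shHIF2A library was far below every shJUNs library, but the size of the difference moved with 1 library: log2 5.43 for ALDH2 became 8.32 without shHIF2A replicate 1, and 5.48 for HNMT became 6.79 without shHIF2A replicate 3. RHOF, a small GTPase of filopodia, was 68.7 against 1.91 CPM (35.6-fold). It overlaps TMEM120B on the other strand, and CENPV overlaps PIGL, so how shared reads were counted bears on both. The long noncoding RNA LCIIAR (40.6-fold, log2 5.34, and 6.81 without shHIF2A replicate 1), LRRC75B (133 against 3 counts) and C1QTNF1, a secreted C1q-related protein (132 against 3 counts), complete the 12 largest. Parental means of these 12 genes were all under 5 CPM, so their levels in shHIF2A were nearer the parental ones than those in shJUNs were.

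On the lower side, LEF1 (ENSG00000138795, chromosome 4, 108047545 to 108168956), the transcription factor that carries β-catenin signals, had 0 counts in shJUNs and was 20.9, 9.98 and 8.06 CPM in shHIF2A, at least 56.7-fold lower (adjusted p = 2.00e-06). TMPRSS15 (ENSG00000154646, chromosome 21, 18269116 to 18485879), enteropeptidase, likewise had 0 counts in shJUNs and was 15.4, 15.6 and 6.31 CPM in shHIF2A, at least 54-fold lower (adjusted p = 0.000171). CCDC152 had 1 against 105 counts. CHST9, a sulfotransferase of N-acetylgalactosamine, was 0.222, 0.534 and 0 CPM in shJUNs and 27.8, 11.2 and 5.61 CPM in shHIF2A, with a call lost with limma-voom (0.0562) and a log2 difference of -5.78 that was -4.96 without shHIF2A replicate 1 and -6.66 without shJUNs replicate 2, and STK33, a kinase, had 2 against 96 counts. LEF1 and CHST9 were also expressed in parental cells, at 15.1 and 26.7 CPM, whereas TMPRSS15 was at 0.631 CPM there.

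TMEM98 (33.9-fold lower), PTPRS, a receptor tyrosine phosphatase (30.4-fold), SRGN, the proteoglycan serglycin (28.6-fold), and NME4, a mitochondrial nucleoside diphosphate kinase (26.7-fold), were each under 1 CPM on average in shJUNs. SRGN (ENSG00000122862, chromosome 10, 69088103 to 69104805) was 0.666, 0.267 and 0.447 CPM in shJUNs and 12.8, 15.6 and 15.1 CPM in shHIF2A (adjusted p = 1.25e-07). NME4 overlaps DECR2. Without shJUNs replicate 1 the log2 differences of PTPRS and NME4 moved from -4.93 and -4.74 to -6.59 and -5.88. NPR3, the clearance receptor of natriuretic peptides, was 0.888, 0 and 1.79 CPM in shJUNs and 18.3, 9.67 and 8.76 CPM in shHIF2A, and MT1F, a metallothionein with close paralogs, was 4.44, 5.61 and 1.79 CPM in shJUNs and 47.2, 36.5 and 45.9 CPM in shHIF2A (11-fold). DEFB1, β-defensin 1, was 5.33, 1.87 and 3.8 CPM in shJUNs and 119, 50.2 and 18.2 CPM in shHIF2A. Its shHIF2A libraries spanned the widest range of these genes, and the call ended with limma-voom (0.144), with no filter on low counts (0.0679) and without shJUNs replicates 1 (0.0638), 2 (0.0901) or 3 (0.0811). The log2 difference of DEFB1 was -4.06 and -3.20 without shHIF2A replicate 1, and that of NPR3 -3.68 and -4.58 without shJUNs replicate 3.

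Promoter windows of these extreme genes, the first 3 in each direction with an entry in the table, are described for the AP-1 site TGANTCA and the hypoxia core, both strands searched. The windows of CLIC3, CENPV and LEF1 hold neither motif. Those of the other genes, in which matches are in capitals, are TFCP2 at chr12:51173086-51173385, reverse strand, TMPRSS15 at chr21:18403736-18404035, reverse strand and CCDC152 at chr5:42756568-42756867, forward strand (RefSeq, GRCh38.p14).
TFCP2: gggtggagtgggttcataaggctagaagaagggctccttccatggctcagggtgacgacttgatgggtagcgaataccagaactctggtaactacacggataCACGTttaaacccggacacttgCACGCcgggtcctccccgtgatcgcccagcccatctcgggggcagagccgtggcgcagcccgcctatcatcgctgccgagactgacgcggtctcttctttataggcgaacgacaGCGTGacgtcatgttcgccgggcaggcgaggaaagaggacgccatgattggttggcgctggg
TMPRSS15: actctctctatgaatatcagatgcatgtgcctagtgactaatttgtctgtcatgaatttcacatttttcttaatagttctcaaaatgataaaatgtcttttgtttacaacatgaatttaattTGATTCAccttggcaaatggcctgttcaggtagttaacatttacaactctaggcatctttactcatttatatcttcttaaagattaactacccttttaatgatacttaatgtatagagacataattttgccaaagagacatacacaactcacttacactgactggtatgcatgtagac
CCDC152: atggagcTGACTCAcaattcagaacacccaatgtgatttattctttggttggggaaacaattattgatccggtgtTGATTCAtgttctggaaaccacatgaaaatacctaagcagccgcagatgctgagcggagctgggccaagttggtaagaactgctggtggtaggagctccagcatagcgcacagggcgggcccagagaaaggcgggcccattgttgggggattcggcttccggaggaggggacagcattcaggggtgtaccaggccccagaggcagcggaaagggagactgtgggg
TFCP2 holds 3 hypoxia cores, TMPRSS15 1 AP-1 site and CCDC152 2 AP-1 sites. Over whole sets, TGANTCA occurred in 6.35% of 425 promoters of genes higher and in 8.31% of 301 promoters of genes lower in shJUNs, beside 4.47% of 9531 promoters of all genes tested and 7.76% of all 27305 in the table. The form TGACTCA alone gave 4.24%, 4.65%, 3.03% and 4.92%. ACGTG or GCGTG occurred in 55.8% of promoters of higher genes, 69.4% of those of lower genes, 64.2% of those of all genes tested and 48.4% of all in the table. No test was run on these shares, and sites outside the 300 bases were not examined.

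Among abundant mRNAs, an epithelial keratin and the caveolins were among the genes higher in shJUNs. KRT19 (ENSG00000171345, chromosome 17, 41523617 to 41528308), a keratin of simple epithelia, was 278, 341 and 296 CPM in shJUNs and 11.3, 9.05 and 13.7 CPM in shHIF2A, a 26.9-fold difference (log2 4.75, SE 0.23) with the smallest adjusted p of all genes (4.25e-12). Its parental mean was 7.86 CPM, close to shHIF2A. CAV1 (ENSG00000105974, chromosome 7, 116524994 to 116561179), the caveolae coat protein, was 1355, 1298 and 1302 CPM in shJUNs and 541, 606 and 606 CPM in shHIF2A (2.25-fold, adjusted p = 1.38e-07), and its neighbour and partner CAV2 was 977, 919 and 937 CPM in shJUNs and 415, 353 and 309.7 CPM in shHIF2A (2.63-fold). The groups were separate for both caveolins, and parental means lay between them (826 and 532 CPM).

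TMEM141 was 494 against 125 CPM (3.93-fold), and the galactose-binding lectins LGALS1 and LGALS3 were 3063 against 1778 CPM and 240.1 against 75.5 CPM. C12orf75, which overlaps APPL2, was 676 against 269 CPM. Lower in shJUNs besides JUND were FSCN1, the actin-bundling protein fascin (211, 204 and 224 CPM in shJUNs and 448, 447 and 441 CPM in shHIF2A, 2.09-fold), and ADGRG1, an adhesion G protein-coupled receptor (343, 301 and 316 CPM in shJUNs and 1035, 840.0 and 577 CPM in shHIF2A). FSTL1, a secreted glycoprotein, was 1351 against 2517 CPM, and TMED3, of vesicle trafficking, 185 against 344 CPM. All of these were free of overlap between the lines.

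Actin cytoskeleton and focal adhesion genes were called mostly in 1 direction. Of 31 tested, 11 were higher and 1 lower, beside 4.36% and 3.17% of all genes, 26 differences were positive, and the median was 0.43. With 1 library left out 6 to 15 were higher, and the fewest, 6, came without shHIF2A replicate 2, shJUNs replicate 1 or shJUNs replicate 2. ACTA2 (ENSG00000107796, chromosome 10, 88935074 to 88991339), smooth muscle actin, was 61.2, 61.4 and 51.8 CPM in shJUNs and 16.5, 14 and 7.71 CPM in shHIF2A (4.51-fold, adjusted p = 0.000175). It overlaps FAS and STAMBPL1. FLNA, the actin crosslinker filamin A, was 865, 931 and 887 CPM in shJUNs and 490.2, 503 and 441 CPM in shHIF2A (1.87-fold, adjusted p = 0.000916), and MYH9, nonmuscle myosin heavy chain, was 1205, 1233 and 1096 CPM in shJUNs and 760.0, 776 and 687 CPM in shHIF2A (1.59-fold, adjusted p = 0.00218). None of these 3 genes had overlapping libraries.

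TAGLN, transgelin (22.5 against 4.16 CPM), LIMA1 (148 against 64.6 CPM), the myosin light chains MYL9 (370.3 against 226 CPM) and MYL6 (1931 against 1306 CPM), and VCL, vinculin of focal adhesions (399 against 277 CPM), were also called. ACTB (6140.5 against 6801 CPM), CFL1, cofilin (1087 against 1076 CPM), and SRF, the transcription factor of many actin genes (39.9 against 41.1 CPM), did not pass. CNN3, calponin 3, was the 1 member lower (483 against 691 CPM), a call lost without the 6 chromosomes (0.0753), without shHIF2A replicates 1 (0.101), 2 (0.0861) or 3 (0.0962), without shJUNs replicates 1 (0.155), 2 (0.125) or 3 (0.0917) and without shYAPTAZ replicate 2 (0.056). Of the 11 higher genes 4 lay on chromosomes 9, 12, 14, 16 and 22, which were shifted as a whole (below).

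Keratin and junction genes gave mixed results. Of 18 tested, 3 were higher (3 to 4 with 1 library left out), 2 of them on chromosome 12, and 1 lower. Besides KRT19, KRT80 was 93.6, 98.8 and 80.5 CPM in shJUNs and 29, 41.8 and 31.5 CPM in shHIF2A (2.67-fold, adjusted p = 0.000354) and KRT8, a simple epithelial keratin, 560.5, 659 and 659 CPM in shJUNs and 388, 375 and 324 CPM in shHIF2A (1.73-fold, adjusted p = 0.00393). KRT8 overlaps its partner KRT18, which was 417 against 305 CPM. DSC2, a desmosomal cadherin, had 1 against 38 counts. CLDN4 (99.3 against 81.3 CPM), CDH6 (232 against 306 CPM) and TJP1 (87.8 against 86.4 CPM) of cell junctions did not pass. Of 12 mesenchymal factors and markers edgeR called VIM, a called share of 8.33% beside 7.53% of all genes. The other tools, filters and scalings called 1 to 2 higher and 0 to 2 lower. ZEB2 (27.8 against 49.4 CPM), SNAI2 (62.2 against 88.9 CPM), ZEB1 (21.3 against 16.8 CPM) and CDH2 (315 against 278 CPM) did not pass.

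Matrix and adhesion genes differed in both directions. Of 31 matrix proteins 4 were higher and 1 lower (3 to 6 higher and 1 to 3 lower with 1 library left out, the 3 lower without shHIF2A replicate 3), with a median of 0.01. TNC (ENSG00000041982, chromosome 9, 115019575 to 115118207), tenascin C, was 243, 222 and 256 CPM in shJUNs and 84.9, 60.8 and 62.4 CPM in shHIF2A (3.46-fold, adjusted p = 3.22e-07), and its parental mean was 7.89 CPM, below both. COL6A1 and COL5A2, collagen chains, were 48.9 against 14.6 CPM and 25.7 against 3.53 CPM. SPARC (ENSG00000113140, chromosome 5, 151661096 to 151686975), a matricellular collagen-binding protein, went the other way, at 1178, 1081 and 965 CPM in shJUNs and 2629.7, 2329.9 and 1898 CPM in shHIF2A (2.13-fold lower, with adjusted p = 7.29e-05). FN1, fibronectin, was 797 against 1033 CPM and did not pass, and COL4A1, a basement membrane collagen, was 837 against 873 CPM.

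Of 22 matrix enzymes and inhibitors 5 were higher and 1 lower (3 to 6 higher with 1 library left out, fewest without shHIF2A replicate 2 or shJUNs replicate 1). MMP2 (ENSG00000087245, chromosome 16, 55389700 to 55506691), gelatinase A, was 56.8, 59.3 and 51.6 CPM in shJUNs and 7.83, 9.05 and 7.36 CPM in shHIF2A, 6.88-fold higher (adjusted p = 1.19e-07). TIMP2, which binds the proenzyme of MMP2, was 193 against 131 CPM. SERPINE2, a protease inhibitor, was 84.9 against 26.8 CPM, and SERPINH1, the collagen chaperone HSP47, 76.6 against 36.4 CPM. MMP16, a membrane-bound activator of MMP2, was 0.888, 0 and 0.447 CPM in shJUNs and 15.1, 11.2 and 2.45 CPM in shHIF2A, with replicates of shHIF2A that differed widely (log2 -4.27, and -5.11 without shJUNs replicate 1).

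Of 12 integrin subunits ITGA3, ITGA4 and ITGA6 were higher and ITGB5 lower. ITGA3, a laminin-binding subunit, was 502, 539 and 539.9 CPM in shJUNs and 258, 286 and 204 CPM in shHIF2A (2.11-fold, adjusted p = 2.10e-05), and ITGA4 had 112 against 1 counts, a ratio of 83.7 (95% interval 14.7 to 3330.0). ITGB5, of a vitronectin receptor, was 179, 172 and 171 CPM in shJUNs and 309, 298 and 250.5 CPM in shHIF2A (1.65-fold lower, with adjusted p = 0.00101). ITGB1, the shared β subunit, was 180.3 against 150.1 CPM with overlapping libraries. The call of ITGA6 (27.5 against 11.6 CPM) was lost without shHIF2A replicates 2 (0.177) or 3 (0.0829) and without shJUNs replicates 2 (0.115) or 3 (0.157).

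Sterol synthesis was the list with the most members lower in shJUNs relative to its size among lists of nuclear genes with over 3 members tested. Of 22 genes of cholesterol synthesis and uptake 7 were lower and 0 higher (6 to 9 lower with 1 library left out), 20 differences were negative, and the median was -0.70. INSIG1 (ENSG00000186480, chromosome 7, 155297776 to 155310235), the sterol sensor that holds SREBP in the endoplasmic reticulum, was 168, 138 and 121 CPM in shJUNs and 637, 662 and 498 CPM in shHIF2A (4.21-fold lower, with adjusted p = 1.99e-05). HMGCS1 (ENSG00000112972, chromosome 5, 43287470 to 43313512), which makes HMG-CoA for the pathway, was 32, 28 and 20.1 CPM in shJUNs and 82.6, 100.1 and 84.1 CPM in shHIF2A (3.33-fold, adjusted p = 3.46e-05). IDI1 (ENSG00000067064, chromosome 10, 1039152 to 1049119), isopentenyl diphosphate isomerase, was 52.4, 45.1 and 53 CPM in shJUNs and 139, 134 and 132 CPM in shHIF2A (2.69-fold, adjusted p = 4.08e-05).

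For these 3 genes no libraries of the lines overlapped, and parental means (324, 32.3 and 82.3 CPM) lay between the lines or near shJUNs. DHCR7, an enzyme of the last step, was 34.4 against 84.3 CPM and FDPS 139 against 216 CPM. The mean centred level of the list was -0.25, -0.27 and -0.43 in shJUNs and 0.47, 0.49 and 0.28 in shHIF2A, while the parental libraries ranged from -0.3 to 0.33. SREBF2, the gene of the factor SREBP2 that drives the pathway, was 53.1 against 57 CPM, and ABCA1, a cholesterol exporter, 213 against 148 CPM. Neither was called. The sterol response element TCACNCCAC, searched on both strands in an analysis added after the values were seen, was in 0 of 5 promoters of the lower members present in the table and in 1.06% of those of all genes tested.

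**Figure D3:**
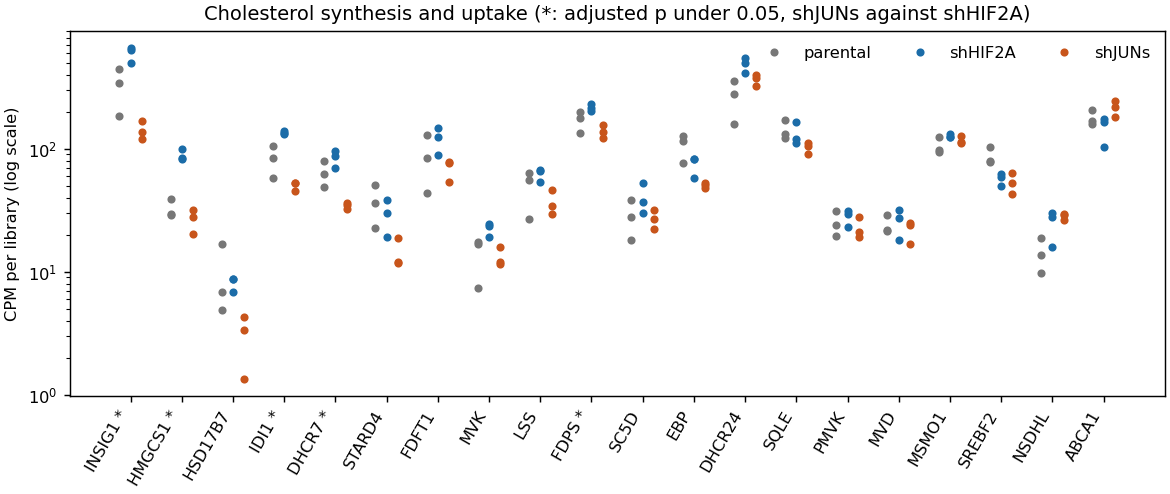
CPM of 20 of the 22 tested genes of cholesterol synthesis and uptake in each parental, shHIF2A and shJUNs library (log axis), ordered by the difference between the derived lines. The shJUNs points of INSIG1, HMGCS1 and IDI1 lie below all shHIF2A points, and toward the right of the plot the groups overlap.

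Fatty acid genes were called mostly in the same direction. Of 23 tested, 4 were lower and 1 higher (1 to 5 lower with 1 library left out, fewest without shJUNs replicate 1), and 18 differences were negative (median -0.34). FADS2, a desaturase of polyunsaturated fatty acids that overlaps FADS1 and FEN1, was 81, 85.5 and 64.4 CPM in shJUNs and 223, 208 and 124 CPM in shHIF2A (2.41-fold lower, with adjusted p = 0.000869). FASN, fatty acid synthase, was 42.8, 63 and 51.4 CPM in shJUNs and 149, 116 and 92.5 CPM in shHIF2A (2.28-fold, adjusted p = 0.00676), a call lost without shJUNs replicate 1 (0.0538). SCD, the stearoyl-CoA desaturase, was 177, 163 and 87.2 CPM in shJUNs and 518, 349 and 213 CPM in shHIF2A without passing (adjusted p = 0.131). ACSL1, an acyl-CoA synthetase, was the 1 higher member (52.3 against 25.4 CPM), a call lost without shHIF2A replicate 2 (0.0885) and without shJUNs replicates 2 (0.0892) or 3 (0.0609). The gene SREBF1 was 81.7 against 101 CPM.

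Transcripts of the mitochondrial genome were lower in shJUNs where called. Of 13 tested, 6 were lower and 0 higher (4 to 8 with 1 library left out), and the median was -0.44. MT-ND4, a subunit of complex I, was 4862, 4867 and 4028 CPM in shJUNs and 7803, 7634 and 6088 CPM in shHIF2A (1.56-fold, adjusted p = 0.000318). MT-CO3, of complex IV, was 10773 against 14576 CPM, and MT-ND3 1043 against 1574 CPM. The mitochondrial share of all counts was 7.44%, 7.25% and 6.33% in shJUNs and 9.37%, 8.49% and 7.2% in shHIF2A. The shares overlapped, since shHIF2A replicate 3 lay below shJUNs replicates 1 and 2. They fell from replicate 1 to 3 in all 4 groups, and at each replicate number shJUNs was below shHIF2A. The difference of -1.35 percentage points had p = 0.3 in a two-sided exact permutation test. That test ignored the replicate numbers, and with 3 against 3 its p cannot go below 0.1.

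Nuclear genes of oxidative phosphorylation were called mostly lower. Of 40 tested, 5 were lower and 1 higher, 15% of them beside 7.53% of all genes (2 to 6 lower with 1 library left out, fewest without shHIF2A replicates 1 or 2 or shJUNs replicates 1, 2 or 3), with a median of -0.19. ATP5MC3, of the ATP synthase ring, was 805, 749 and 781 CPM in shJUNs and 1069.6, 1150.0 and 1252 CPM in shHIF2A (1.49-fold lower, with adjusted p = 0.00268). NDUFB10, of complex I and on chromosome 16, was 249 against 154 CPM, the 1 member higher. Of 42 cytosolic ribosomal protein genes 7 were lower and 1 higher (2 to 12 lower with 1 library left out, fewest without shHIF2A replicate 2 or shJUNs replicates 2 or 3, most without shYAPTAZ replicate 1). RPLP1 was 3342, 3365 and 3319.8 CPM in shJUNs and 4632, 4613 and 4398 CPM in shHIF2A, 1.36-fold lower, with adjusted p = 0.0021, and RPS12 2908 against 3840.5 CPM. Both lists have many processed pseudogenes that can share reads.

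**Figure D4:**
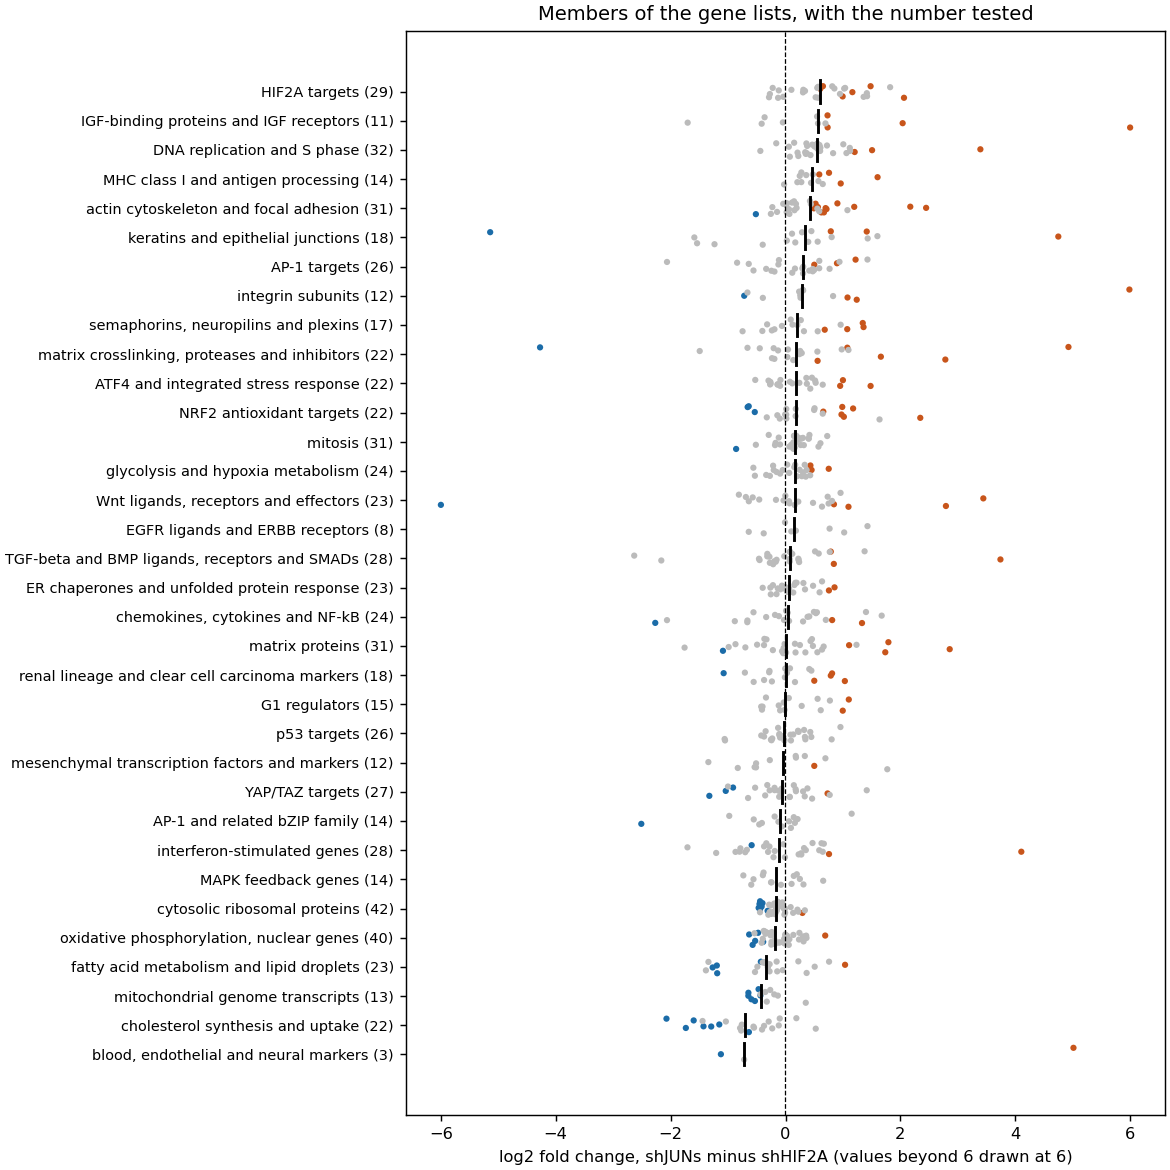
Log2 difference (shJUNs minus shHIF2A) of each tested member of the 34 gene lists, with the number tested in brackets, called members in colour and a black tick at the list median. HIF2A targets have the highest median, 0.61, and sterol synthesis one of the lowest, -0.70.

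Wnt pathway genes held opposite extremes. Of 23 tested, TCF7, DKK3, WNT7B and FZD7 were higher and LEF1 lower. TCF7 (ENSG00000081059, chromosome 5, 134114681 to 134151865), a paralog of LEF1, was 19.3, 25.6 and 17.2 CPM in shJUNs and 2.61, 2.18 and 0.701 CPM in shHIF2A (10.9-fold higher, adjusted p = 7.31e-05). The 2 factors thus had opposite patterns, LEF1 detected in shHIF2A and TCF7 mostly in shJUNs, with TCF7L2 at 19.7 against 19.8 CPM. TCF7 overlaps SKP1. WNT7B, a ligand, was 15.3, 20.3 and 29.7 CPM in shJUNs and 0.580, 4.05 and 4.9 CPM in shHIF2A (6.93-fold), and DKK3, a secreted member of the Dickkopf family that overlaps USP47, 117 against 54.6 CPM. AXIN2, a common readout of β-catenin signalling, was 1.7 against 1.73 CPM and CTNNB1 86.8 against 82.7 CPM.

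Of 28 TGF-β and BMP genes tested 3 were higher and 0 lower, a called share of 10.7% beside 7.53% of all genes. With 1 library left out 1 to 4 were higher, fewest without shHIF2A replicate 1 or shJUNs replicate 2. Libraries did not overlap for 6 members higher and 5 lower, beside 16.2% and 15% of all genes. CHRDL1 (ENSG00000101938, chromosome X, 110673856 to 110795819), a secreted BMP antagonist, was 46.6, 40.9 and 48.9 CPM in shJUNs and 2.9, 4.05 and 3.15 CPM in shHIF2A (13.4-fold, adjusted p = 7.91e-08). SMAD3 was 104 against 60.1 CPM and INHBB, an activin subunit, 49.8 against 27.8 CPM. Both lost the call with some libraries left out: SMAD3 without shHIF2A replicates 1 (0.0735), 2 (0.083) or 3 (0.0657) and without shJUNs replicates 2 (0.103) or 3 (0.079), and INHBB without shHIF2A replicate 1 (0.109) and without shJUNs replicates 1 (0.0805) or 2 (0.0557). INHBA, the other activin subunit, was 38.8, 56.9 and 72.2 CPM in shJUNs and 183, 208 and 362 CPM in shHIF2A (log2 -2.16), which did not pass (adjusted p = 0.11). Of 8 genes of EGF receptor ligands and receptors 0 were called by edgeR in the 12 libraries, DESeq2 or limma-voom, while other edgeR fits called TGFA (above).

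Genes of insulin-like growth factor (IGF) binding and receptor signalling were higher where called. Of 11 genes tested, 4 were higher and 0 lower (1 to 5 with 1 library left out, fewest without shHIF2A replicate 3 or shJUNs replicate 2), and the median was 0.57. The called share was 36.4%, beside 7.53% of all genes. Libraries did not overlap for 6 members higher and 3 lower, beside 16.2% and 15% of all genes, and the lowest log2 difference was -1.70. IGFBP1 was 5.55, 1.87 and 10.3 CPM in shJUNs and had 0 counts in shHIF2A, at least 19.4-fold higher. IGFBP6 was 145, 142 and 154 CPM in shJUNs and 89.6, 97.9 and 78.1 CPM in shHIF2A (1.66-fold, adjusted p = 0.0294), a call lost without shHIF2A replicates 1 (0.079), 2 (0.0577) or 3 (0.112) and without shJUNs replicates 1 (0.0774), 2 (0.0676) or 3 (0.0989). IRS2, an adaptor of the insulin and IGF receptors, was 125 against 74.7 CPM, with a parental mean of 758 CPM and a call lost without shHIF2A replicate 3 (0.126) and without shJUNs replicates 1 (0.102) or 2 (0.0644). The abundant IGFBP3, at 1044 against 705 CPM, did not pass.

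Of 17 semaphorin pathway genes 4 were higher and 0 lower (0 to 4 with 1 library left out, fewest without shJUNs replicate 3). SEMA3C, a secreted guidance cue, was 125, 142 and 186 CPM in shJUNs and 47.2, 48 and 83.4 CPM in shHIF2A (2.54-fold, adjusted p = 0.0144), a call lost without shHIF2A replicates 1 (0.0745) or 2 (0.0763) and without shJUNs replicate 3 (0.0637). SEMA3A was 35.2 against 13.7 CPM, a call lost without shHIF2A replicates 2 (0.0943) or 3 (0.0737) and without shJUNs replicates 1 (0.0715), 2 (0.0662) or 3 (0.0552). The receptor NRP1 was 103 against 136 CPM and NRP2 206 against 189 CPM.

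YAP and TAZ targets were called in both directions. Of 27 tested, 3 were lower (RND3, CCDC80 and FJX1), 1 was higher (AJUBA), and the median was -0.07. RND3 (ENSG00000115963, chromosome 2, 150468195 to 150539011), an atypical small GTPase that opposes actomyosin contraction, was 53.7, 64.1 and 64.1 CPM in shJUNs and 151, 179 and 126 CPM in shHIF2A (2.51-fold lower, with adjusted p = 0.000132). AJUBA, a LIM protein that restrains the Hippo kinase LATS, was 195, 184 and 198 CPM in shJUNs and 123, 109 and 116 CPM in shHIF2A (1.66-fold higher, adjusted p = 0.002). FJX1 (57.7 against 109 CPM) lost its call without the 6 chromosomes (0.0677), without parental replicate 2 (0.0601), without shHIF2A replicates 1 (0.106), 2 (0.157) or 3 (0.0501) and without shJUNs replicates 2 (0.17) or 3 (0.184). CCN1 and CCN2, standard readouts of YAP activity, were 710.3 against 1116 CPM and 58 against 116 CPM and did not pass, nor did YAP1 (57.1 against 46.1 CPM) or WWTR1 (441 against 504 CPM).

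Differences of DNA replication genes were mostly positive, and the level of the list varied between replicates within each group. Of 32 tested, 30 had positive differences (median 0.54), and CDC45, MCM5 and E2F2 were the 3 called. The called share was 9.38%, beside 7.53% of all genes. The mean centred level of the list was 0.08, 0.16 and 0.43 in shJUNs and -0.75, -0.54 and 0.13 in shHIF2A. Replicate 3 of shHIF2A thus lay within the range of shJUNs. Replicate 1 was the lowest in all 4 groups, and at each replicate number shJUNs was above shHIF2A. Without shHIF2A replicate 3, 4 members were called, and without shHIF2A replicate 1, shJUNs replicate 2 or shJUNs replicate 3 the number was 0.

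CDC45, a subunit of the replicative helicase, was 22.4, 29.4 and 35.5 CPM in shJUNs and 7.83, 13.7 and 9.11 CPM in shHIF2A (2.84-fold, adjusted p = 0.0172), a call lost without shHIF2A replicates 1 (0.0848) or 3 (0.0635) and without shJUNs replicates 2 (0.0552) or 3 (0.0913). MCM5, another subunit of it, was 21.5, 33.4 and 43.6 CPM in shJUNs and 11.6, 9.67 and 21.7 CPM in shHIF2A, with overlapping libraries. Its call was lost with thinned counts (0.0802), without shHIF2A replicates 1 (0.124) or 2 (0.156) and without shJUNs replicates 2 (0.0858) or 3 (0.176). E2F2 had 47 against 3 counts, and its call ended with limma-voom (0.1), without parental replicate 2 (0.0548), without shHIF2A replicates 1 (0.144) or 2 (0.121) and without shJUNs replicates 2 (0.0961) or 3 (0.146). MCM4 (151 against 75.3 CPM), PCNA (213 against 166 CPM) and RRM2 (202 against 147 CPM) did not pass.

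Of 31 mitosis genes 1 was called, KIF23, a kinesin of cytokinesis on chromosome 15 (48.4, 50.5 and 54.3 CPM in shJUNs and 70.7, 100.1 and 108 CPM in shHIF2A, 1.81-fold lower, with adjusted p = 0.00519). TOP2A was 344 against 261 CPM and MKI67 83.6 against 67.1 CPM. The mitosis list also varied within shHIF2A, at -0.88, -0.39 and 0.09, against -0.35, -0.19 and -0.12 in shJUNs. Its level rose from replicate 1 to 3 in all 4 groups. Of 15 G1 regulators CDK2 (32 against 14.9 CPM) and RBL2, a pocket protein (41.9 against 20.8 CPM), were higher, on chromosomes 12 and 16 (0 to 3 with 1 library left out, fewest without shJUNs replicates 1 or 3). The call of CDK2 was lost without shHIF2A replicate 1 (0.123) and without shJUNs replicates 1 (0.0677) or 3 (0.0865), and that of RBL2, which overlaps AKTIP, without shHIF2A replicates 2 (0.0678) or 3 (0.141) and without shJUNs replicates 1 (0.115) or 3 (0.0965). CDKN1A, the inhibitor p21, was 159 against 169.9 CPM. Of 26 p53 targets 0 were called in the main edgeR fit. FDXR, with the smallest p, was 37.1, 35 and 32.2 CPM in shJUNs and 16.5, 19.96 and 17.2 CPM in shHIF2A (adjusted p = 0.0621). It was called by DESeq2 (0.0345) and limma-voom (0.0413). Other edgeR fits also called it: no filter on low counts (0.0471), 6 libraries alone (0.0105), thinned counts (0.0377) and a replicate block (0.0348). So did fits without parental replicate 1 (0.041) or shYAPTAZ replicates 1 (0.049) or 3 (0.0356).

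Antioxidant genes of the NRF2 pathway were called in both directions. Of 22 tested, 6 were higher and 3 lower (4 to 7 higher with 1 library left out; 1 to 3 lower with 1 library left out, fewest without shHIF2A replicate 2 or shJUNs replicates 1, 2 or 3). TXNRD1, thioredoxin reductase, which overlaps the pseudogene RPL18AP3, was 445, 459 and 434 CPM in shJUNs and 187, 242 and 252 CPM in shHIF2A (1.97-fold, adjusted p = 0.0015). AKR1B10, an aldo-keto reductase, was 52.2 against 10.2 CPM. FTL, ferritin light chain, was 6566, 6376 and 5923 CPM in shJUNs and 9526, 9042 and 8768 CPM in shHIF2A (1.45-fold lower, with adjusted p = 0.000539). KEAP1, the inhibitor of NRF2, was 60.1 against 94.9 CPM, a call lost with thinned counts (0.0793), without the 6 chromosomes (0.0654), without parental replicate 2 (0.0502), without shHIF2A replicates 2 (0.0964) or 3 (0.172) and without shJUNs replicates 1 (0.142), 2 (0.095) or 3 (0.116). NFE2L2, the NRF2 gene, was 275 against 273 CPM.

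Of 22 ATF4 and integrated stress genes 3 were higher and 0 lower (2 to 6 with 1 library left out, most without parental replicate 1 or shYAPTAZ replicates 1 or 3). PSAT1 (ENSG00000135069, chromosome 9, 78297125 to 78330093), an enzyme of serine synthesis, was 209, 208 and 193 CPM in shJUNs and 87, 94.5 and 134 CPM in shHIF2A (1.93-fold, adjusted p = 0.00192), with a parental mean of 456 CPM. AARS1, alanyl-tRNA synthetase, which overlaps DDX19B on the other strand, was 166, 171 and 168 CPM in shJUNs and 94.2, 78.9 and 78.8 CPM in shHIF2A (2-fold, adjusted p = 0.00232). STC2, counted also among HIF2A targets, was 99, 83.1 and 113 CPM in shJUNs and 33.3, 26.8 and 45.9 CPM in shHIF2A, a call lost without shHIF2A replicates 1 (0.0737) or 2 (0.0865) and without shJUNs replicates 1 (0.0502) or 3 (0.0675). TRIB3 (50.3 against 47.7 CPM) and DDIT3 (31.7 against 35 CPM), readouts of the same pathway, did not pass. Of 23 endoplasmic reticulum genes SEL1L and ERO1A were higher, both on chromosome 14, a called share of 8.7% beside 7.53% of all genes. With 1 library left out 1 to 4 were higher, fewest without shHIF2A replicates 1 or 2 or shJUNs replicates 1 or 2, most without shYAPTAZ replicate 3. SEL1L and ERO1A were at 64 against 35.5 CPM and 71.1 against 42.1 CPM, and HSPA5, the chaperone BiP, was 659.5 against 655 CPM. The call of ERO1A was lost without shHIF2A replicates 1 (0.0745) or 2 (0.0763) and without shJUNs replicates 1 (0.0866) or 2 (0.0599).

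Called antigen presentation genes were all higher in shJUNs. Of 14 genes of MHC class I and its peptide supply 13 had a positive difference (median 0.46), and 4 were higher and 0 lower (1 to 6 with 1 library left out, fewest without shHIF2A replicate 3 or shJUNs replicates 1 or 2). ERAP2, a trimming peptidase of the endoplasmic reticulum, was 200.4, 178 and 159.8 CPM in shJUNs and 87, 88.6 and 101 CPM in shHIF2A (1.95-fold, adjusted p = 0.000998). HLA-B was 1528, 1437 and 1364 CPM in shJUNs and 1089, 971 and 819 CPM in shHIF2A (1.5-fold, adjusted p = 0.0377), without overlap, but the call was lost with limma-voom (0.0675), with thinned counts (0.0579), without shHIF2A replicates 2 (0.0963) or 3 (0.143) and without shJUNs replicates 1 (0.113), 2 (0.0892) or 3 (0.0661). B2M, the shared light chain, was 1806 against 1837 CPM and did not pass. Reads of HLA genes can be shared between paralogs.

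Interferon-stimulated genes were called in both directions (28 tested, 2 higher, 1 lower, median -0.11). The called share was 10.7%, beside 7.53% of all genes. With 1 library left out 1 to 5 were higher, fewest without shHIF2A replicates 2 or 3 or shJUNs replicates 1, 2 or 3, most without shYAPTAZ replicate 3. IFI27 (ENSG00000165949, chromosome 14, 94104836 to 94116695) was 82.1, 80.7 and 84.5 CPM in shJUNs and 6.09, 7.17 and 0.701 CPM in shHIF2A (17.2-fold higher, adjusted p = 1.28e-05), whereas ISG15 was 123 against 124 CPM and IFIT1 17.9 against 31 CPM. BST2, tetherin, was 156 against 235 CPM, a call lost with thinned counts (0.0552), without the 6 chromosomes (0.0807), without parental replicate 2 (0.0552), without shHIF2A replicates 1 (0.136), 2 (0.125) or 3 (0.0687), without shJUNs replicates 1 (0.155), 2 (0.119) or 3 (0.139) and without shYAPTAZ replicate 2 (0.0529). Of 24 chemokine, cytokine and NF-κB genes 2 were higher and 1 lower (0 to 4 higher with 1 library left out, fewest without shHIF2A replicate 2, most without shYAPTAZ replicates 1 or 3). BIRC3, an inhibitor of apoptosis, was 101, 83.6 and 85.4 CPM in shJUNs and 28.4, 30.3 and 49 CPM in shHIF2A (2.52-fold, adjusted p = 0.00715), a call lost without shHIF2A replicate 2 (0.0522). ACKR3, a scavenging chemokine receptor, was 3.33, 2.67 and 0.223 CPM in shJUNs and 6.09, 10.9 and 13.3 CPM in shHIF2A, lower in shJUNs, and its call ended with limma-voom (0.0646) and without shHIF2A replicates 2 (0.0502) or 3 (0.0528).

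Renal markers gave 4 higher (2 to 5 with 1 library left out, fewest without shHIF2A replicate 3) and 1 lower (0 to 2, fewest without shHIF2A replicates 1 or 2 or shJUNs replicate 2, most without shYAPTAZ replicates 1 or 3) of 18. ANPEP, a brush border peptidase, was 35.1, 37.7 and 30.8 CPM in shJUNs and 18.6, 17.5 and 14.4 CPM in shHIF2A (2.05-fold, adjusted p = 0.0111; call lost without shHIF2A replicate 3 (0.0511)). LHX1, a factor of early nephron development, was 17.6 against 37.3 CPM, a call lost without shHIF2A replicates 1 (0.0714) or 2 (0.0685) and without shJUNs replicate 2 (0.0858). Of 20 markers of blood, endothelial and neural cells 3 passed the filter on low counts. RBFOX3 was higher (100 against 2 counts), and NEFL, neurofilament light chain, was 685, 616 and 609 CPM in shJUNs and 1583, 1458 and 1127 CPM in shHIF2A (2.18-fold lower, with adjusted p = 0.00164).

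Whole chromosomes differed between the lines. Genes on chromosome 14 had a median log2 difference of 0.42, with 50 higher and 1 lower of 413 tested. Chromosome 12 had a median of 0.30 (65 higher and 3 lower of 641), chromosome 16 of 0.30 (38 and 6 of 533) and chromosome 22 of 0.31 (24 and 3 of 290). Chromosome 9 was shifted less, at 0.14 (26 and 5 of 492). Chromosome 15 went the other way, at -0.24, with 11 higher and 27 lower of 383. Chromosome 19, with JUND, JUNB, PTPRS, FTL, KEAP1 and BST2, was at -0.08, with 8 higher and 32 lower of 797.

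These shifts were alike in the replicates. The median centred log2(CPM + 1) of chromosome 14 was 0.111, 0.128 and 0.138 in shJUNs, -0.295, -0.337 and -0.316 in shHIF2A, and -0.311, -0.32 and -0.273 in parental libraries. On chromosome 12 it was 0.248, 0.211 and 0.236 in shJUNs and -0.102, -0.074 and -0.062 in shHIF2A, again with the parental values (-0.069, -0.054 and -0.039) beside shHIF2A. On those 2 chromosomes shJUNs stood above both other lines, while the libraries with YAP and TAZ silenced were higher still on chromosome 14 (0.524, 0.503 and 0.475). On chromosomes 1 to 6, 8, 10, 11, 13, 18 and 19 all shJUNs libraries lay below all shHIF2A ones, by less than on 15. Chromosomes 9, 12, 14, 16 and 22 together held 2369 genes tested and 203 of those higher, which is 37.9% of all higher genes, but 18 of those lower.

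The other chromosomes, without 15, gave 322 higher and 345 lower of 9549. A refit without these 6 chromosomes, added after the data were seen, called 360 genes higher and 229 lower. What the chromosome shifts contribute to any single gene on them was not tested. Of the higher genes chosen by rule and named above, TMEM141, TNC, CLIC3 and PSAT1 lie on chromosome 9, and RHOF, ALDH2, C12orf75, KRT80, TFCP2, TXNRD1, KRT8, TPI1, CDK2, IGFBP6 and PHLDA1 on 12. LGALS3, IFI27, AJUBA, SEL1L and ERO1A lie on 14, MMP2, AARS1, NDUFB10, SLC7A5 and RBL2 on 16, and LGALS1, LRRC75B, MYH9, WNT7B, CDC45 and MCM5 on 22. ENO2, SCARB1, LIMA1 and MYL6, also named, are on 12. The lower genes TMED3, RPLP1 and KIF23 lie on 15, and MT1F, ADGRG1 and NME4 were lower although on 16. Chromosome 17, with KRT19, CENPV, ITGA3 and SLC16A3, had 45 higher and 11 lower of 734 and a median of 0.04. Its libraries were at 0.117, 0.088 and 0.112 in shJUNs and 0.039, 0.029 and 0.031 in shHIF2A, without overlap, and the refit kept it.

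**Figure D5:**
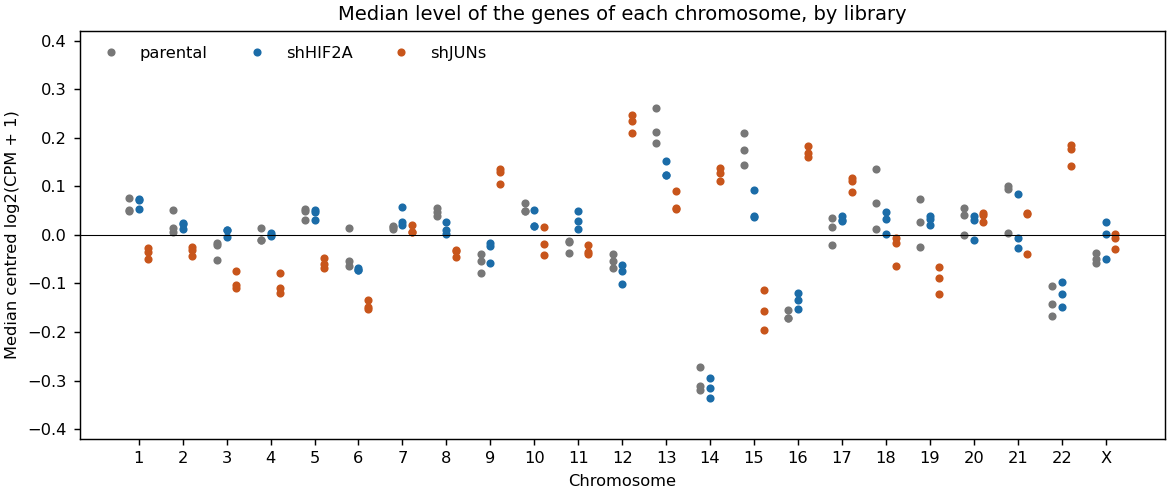
Median over genes of the centred log2(CPM + 1) of each chromosome in each parental, shHIF2A and shJUNs library, for genes averaging 10 CPM or more. On chromosomes 9, 12, 14, 16 and 22 the 3 shJUNs points lie above all parental and shHIF2A points, and on 15 below them.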

How the data were processed

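BRB-seq libraries of 12 samples in 4 labelled groups of 3 were used, per the labels' protocols. Reads were trimmed with Trim Galore and aligned to hg38 with STAR, per the submitters' processing notes, and the authors deposited raw counts per gene in 1 table. The counting tool, its strand setting, the annotation release and the treatment of molecular identifiers were not given in the sources used here, so values of genes that overlap another expressed gene are uncertain, and the overlaps are named for genes described at length.

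Of 62702 genes, 1 gene broken over 3 lines being left out, 12301 passed edgeR's filterByExpr over all 12 libraries. The edgeR 4.0.16 quasi-likelihood test (robust, TMM, 1 mean per group) in R 4.3.3 gave the contrast shJUNs minus shHIF2A, with Benjamini-Hochberg adjustment over these genes and a threshold of 0.05. CPM use TMM-scaled library sizes. At these depths 3 counts equal 0.666 to 1.05 CPM. On simulated data 34 of 100 genes changed 2-fold and 75 of 100 changed 4-fold were called, with 6 unchanged genes, among 11968 genes. Alternatives were DESeq2 1.42.0, limma-voom (limma 3.58.1), other scaling and filters, thinned counts and leaving out each library.

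The genes compared and the 34 lists were chosen with earlier results of these data known, and no list was tested as a set. Genes named by rule were the shRNA targets, the 12 largest called changes in each direction (at least 10 CPM in the higher group, no overlap between libraries), the 8 smallest p-values in each direction at 100 CPM or more, and up to 3 called members per list and direction, or the member with the smallest p where none was called. Other named list members were chosen after their values were seen. The values of some list members are not reported here.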

Additional observations from a re-analysis of the deposited data

How the results depend on the processing

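Against 536 genes higher and 390 lower, DESeq2 gave 737 and 501, limma-voom 572 and 452, DESeq2-type size factors in edgeR 545 and 378, no filter on low counts 690 and 402, and thinned counts 480 and 345. A fit of the 6 libraries alone gave 879 and 742. A refit without chromosomes 9, 12, 14, 15, 16 and 22 gave 360 and 229. Leaving out each of the 12 libraries gave 306 to 694 higher and 165 to 505 lower. Deviations from the group mean correlated at 0.12, 0.011 and 0.18 between same-numbered libraries of the lines, and at -0.148 to 0.045 between differently numbered ones. The main fit did not pair libraries by number, and whether those of 1 number share an effect was not tested. A fit with the replicate block gave 778 and 572. EPAS1 missed the threshold with limma-voom (log2 1.25, adjusted p = 0.134), with thinned counts (log2 1.29, 0.0635) and without any 1 of the 6 libraries (log2 1.04 to 1.34 over all 12 left out in turn). JUNB passed it in the 6 libraries alone (log2 -0.45, adjusted p = 0.0323). The share of lower genes' promoters with TGACTCA alone was 4.65%. Of 129 named genes called, 88 were called under every alternative that tested them, 41 lost the call in at least 1, and 0 changed direction. With 3 technical replicate libraries in 1 line of each kind, and shJUNs the deeper line, differences of low genes are the least certain.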
